A study of Homo sapiens with 2 samples.

Results

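The intervals described here are HITS-CLIP peaks that lie in protein-coding genes with a span above 100 kb. HITS-CLIP crosslinks protein to RNA with ultraviolet light, recovers the protein with an antibody and sequences the attached RNA as short tags. An interval was a member when its midpoint lay inside a protein-coding gene listed for it, by that gene's RefSeq span on hg38, and the longest such gene exceeded 100 kb. Intervals with a midpoint inside a small RNA gene, or a pseudogene of one recognised by its symbol, were left out. This gave 375 of 1406 distinct intervals (26.7%) in 281 host genes, out of 1241 intervals in protein-coding genes of any span. The study comprised 1 group of 2 libraries, called duplicates in the labels, from MDA-231-LM2, a breast cancer line selected for spread to the lung from MDA-MB-231, with no treatment, input or control sample. The antibody label and the title name SF3B1 as the target, while the extract protocol names SNRBP2. The deposited list joins the tags of both libraries, so the values have no replicate error and the depth of each library is unknown.

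SF3B1 is a core protein of SF3b, the part of the U2 splicing particle that holds the branch point upstream of each 3′ splice site. Long human genes owe most of their span to introns, and the introns near the 5′ end are often the longest. Their products include many large proteins of the cytoskeleton, of cell adhesion and of chromatin. The list gives for each peak the fields PH, PH0 and P, all of them the authors' own values. They are read here, from their names and values, as the peak height in pooled tags, the height expected for the gene and a p-value. Transcript levels were not measured, so contact with the protein and abundance of the RNA cannot be told apart.

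The reference used held the bases of 3 members, which overlap RefSeq windows around annotated start sites (GRCh38.p14). Only the RTN4 window is that of a start of the host gene. The window at DIP2C belongs to LOC124902362, and that at ZFYVE28 to LOC124900649, which is on the strand opposite to the interval. They are shown 5′ to 3′ on the strand of the interval, with the bases of the interval in capitals, to let the reader see what such an interval covers. The sequences of the other members were not analysed here. The first is the interval of 5 tags at chr10:341371-341413 (minus strand) in DIP2C, a member of the disco-interacting protein family, shown over chr10:341321-341442. The second is the interval of 5 tags at chr2:55050383-55050425 (minus strand) in RTN4, a reticulon of the endoplasmic reticulum. It begins 26 bases downstream of an annotated internal start of RTN4, and 24 of its 43 bases were in the window (shown over chr2:55050402-55050475). The last is the interval of 5 tags at chr4:2339661-2339704 (minus strand) in ZFYVE28, an endosomal FYVE domain protein, shown over chr4:2339611-2339754.
DIP2C: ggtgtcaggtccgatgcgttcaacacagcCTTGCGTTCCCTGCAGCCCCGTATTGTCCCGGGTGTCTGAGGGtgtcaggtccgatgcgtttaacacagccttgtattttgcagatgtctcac
RTN4: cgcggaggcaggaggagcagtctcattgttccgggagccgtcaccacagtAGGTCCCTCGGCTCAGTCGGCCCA
ZFYVE28: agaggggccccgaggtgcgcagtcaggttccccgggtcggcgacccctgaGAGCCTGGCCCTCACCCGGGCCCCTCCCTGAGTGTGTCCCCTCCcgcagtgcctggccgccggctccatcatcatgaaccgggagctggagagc

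C or T made up 60.5% of the DIP2C interval, 58.3% of the bases read in RTN4 and 68.2% of the ZFYVE28 interval. Over all 35116 RefSeq start windows of 300 nt, the median share of C or T on the gene strand was 49.7%, with quartiles of 46 and 53.7. The ZFYVE28 interval had the highest share of the 3. Stretches of 24 to 44 nt vary more in composition than windows of 300 nt, so these shares cannot be placed within those quartiles. With 3 intervals, chosen only by where the windows lie, no statement is made about the members as a whole.

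Intervals in long genes lay mostly toward the 3′ end. Position was measured from the 5′ end of the RefSeq span, and the interval's own strand set the direction. The strand of the gene was known for 313 members and equalled that of the interval in all 313. The list had already assigned these intervals to their genes. Whether it did so by strand is unknown, so this match is no independent check. The median position was 75.9% of the span (95% order-statistic interval 71.7 to 78.7). The last 10% of the span held 91 of 375 intervals, 24.3% (exact binomial interval 20.01 to 28.9), where uniform placement would give 10%. The stretch from 80 to 90% held 71 (18.9%) and that from 70 to 80% held 57 (15.2%), so that the last 30% held 219, 58.4% (53.2 to 63.4). The binomial interval of each of these 3 stretches lies above the uniform share. Uniform placement here refers to the whole span, introns included. Positions of exons, introns and splice sites were not analysed, so whether the shift follows them was not tested.

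The upstream side of long genes was sparse, with its lowest values not at the very start. The first 10% held 23 intervals (6.13%, 3.93 to 9.06) and the next 10% held 22 (5.87%). The stretches from 20 to 30% and from 30 to 40% held 12 each (3.20%, 1.66 to 5.52), and that from 40 to 50% held 17 (4.53%). From 20 to 50% of the span there were 41 intervals, 10.9% (7.96 to 14.5), where uniform placement would give 30%. The stretches from 50 to 60% and from 60 to 70% held 35 each (9.33%, 6.59 to 12.7), which includes the uniform share.

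**Figure D1:**
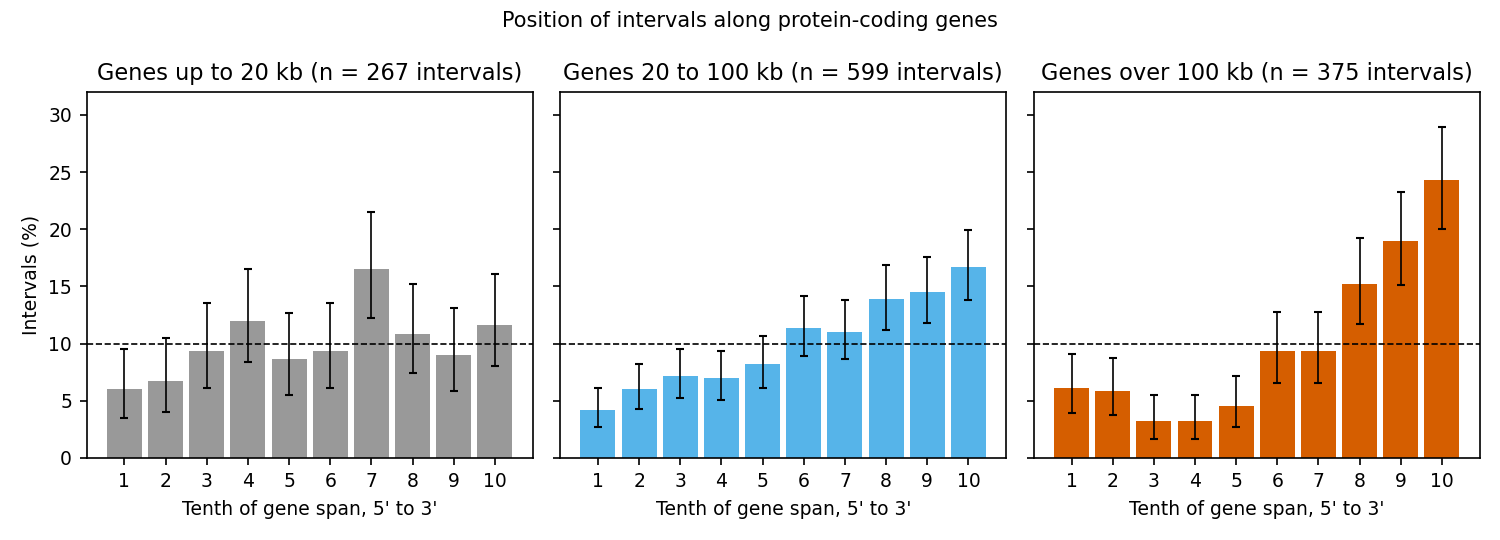
Share of intervals (%) in each 10% of the gene span, from the 5′ to the 3′ end, for protein-coding genes up to 20 kb (grey), 20 to 100 kb (blue) and over 100 kb (orange). Bars are shares, whiskers exact binomial 95% intervals and the dashed line the uniform share of 10%; in genes over 100 kb the last 10% reaches 24.3%, and the stretches from 20 to 30% and from 30 to 40% hold 3.20% each.

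Shorter genes were measured the same way. In genes of 20 to 100 kb the last 10% held 100 of 599 intervals, 16.7% (13.8 to 19.9), and in genes up to 20 kb 31 of 267, 11.6% (8.03 to 16.1). The median position was 65.5% (61.9 to 68.8) and 58.9% (52.9 to 61.5), respectively. The stretch from 20 to 50% held 22.4% of intervals (19.1 to 25.9) in genes of 20 to 100 kb and 29.96% (24.5 to 35.8) in genes up to 20 kb, against 10.9% in genes over 100 kb. For this stretch and for the median position, the 95% interval of the longest class overlaps that of neither shorter class. For the median position this depended on the gene start used. From the most downstream annotated start, the median in genes over 100 kb was 71.3% (67.2 to 74.3). In hosts with 1 annotated start it was 73.2% (68.5 to 79.4). Both ranges overlap that of genes of 20 to 100 kb, and the shorter classes were not measured in these ways. These intervals cover counting error only and treat intervals of a gene as independent. With only the tallest interval of each gene, the last 30% held 56.9% in genes over 100 kb (50.9 to 62.8), 45.4% in genes of 20 to 100 kb (41.0 to 49.9) and 32.3% in genes up to 20 kb (26.1 to 38.9). No test of the difference between classes was made, since there is 1 pooled list.

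Among long genes the position did not shift further with span in a visible way. The median was 76.6% in genes of 100 to 200 kb (212 intervals), 74.5% in genes of 200 to 500 kb (128) and 77.4% in genes over 500 kb (35). The last 10% held 23.6%, 22.7% and 34.3% of them. The last of these rests on 12 intervals, with an interval of 19.1 to 52.2, which covers the other values. With only the tallest interval of each of the 20 genes over 500 kb, 5 lay in the last 10% (25%, 8.66 to 49.1).

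The 3′ shift did not come down to the last kilobase. Members lay at a median of 46946 nt from the 3′ end and 118840 nt from the 5′ end of their gene. Within 1 kb of the 3′ end lay 9 intervals (2.40%), where 1 kb was on average 0.559% of the host span. These were in MAP4, SLC38A6, MAP1B, ECE1, TSPAN5, LRP5, PACS1, HPCAL1 and EXT1, named because they are few. Within 1 kb of the 5′ end of the span lay 0 of 375 intervals. Within 10 kb of the 3′ end lay 52 (13.9%) and within 10 kb of the 5′ end 11 (2.93%), against 5.59% of the span on average.

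The 3 intervals nearest each end had 4 to 8 tags, and taller ones lay close by. Closest to the 3′ end by share of span was the interval of 8 tags in MAP4, a microtubule-associated protein, at 99.96% of the span. It was followed by 5 tags in SLC38A6, an amino acid transporter family member, at 99.8%, and 6 tags in LPP, a LIM protein of focal adhesions, at 99.8%. Closest to the 5′ end were 5 tags in DDX10, an RNA helicase, at 0.586%, 6 tags in DLG1, a scaffold of cell polarity, at 0.80%, and 4 tags in the readthrough locus MSANTD3-TMEFF1 at 1.61%. MAP1B had 14 tags at 99.7% and HPCAL1 12 at 99.3%, while HERC2 had 11 at 1.85% and ANKRD30BL 18 at 2.15%. These 4 were chosen after their values were seen. Of the 313 members whose gene had a start in the reference used, 3 lay within 1 kb of one: those in RTN4, MITF and DLG1. The 62 members in genes without such an entry could not be checked. MITF is a transcription factor with many alternative starts, and its interval of 4 tags lay at 86.5% of the span.

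Peak heights in long genes were low. The median height was 6 tags (interval 6 to 6); the quartiles were 5 and 8, and the members ran from 3 to 36. There were 135 members of 3 to 5 tags (36%), 65 of at least 10 (17.3%, 13.6 to 21.6) and 7 of at least 20 (1.87%, 0.754 to 3.81). In genes of 20 to 100 kb the median was 7 tags (7 to 7) with 27.0% of at least 10 (23.5 to 30.8), and in genes up to 20 kb it was 10 tags (9 to 10) with 50.2% of at least 10 (44.03 to 56.3). Heights therefore stood lower in the longer class at each step, and the intervals for the share of at least 10 tags do not overlap. The expected height fell alongside, from a median PH0 of 0.18 in genes up to 20 kb through 0.05 to 0.02 in genes over 100 kb. The share of listed peaks of 5 tags or fewer rose over the same classes, from 5.99% through 21.04% to 36%. Only peaks called significant are listed. Whether the expected height plays a part in these differences was not tested.

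Relative to the height expected for the gene, the order was the reverse. The median PH/PH0 was 350 in genes over 100 kb (300 to 400, over 341 members), 167 in genes of 20 to 100 kb and 58.3 in genes up to 20 kb. From the shortest to the longest class the median PH fell from 10 to 6 tags, while the median PH0 fell from 0.18 to 0.02. PH0 is listed to 2 decimals, so that 34 members at 0 have no ratio and 121 members at 0.01 have a coarse one. Across the 375 members, Spearman's rho of PH0 with span was -0.36 and that of PH with span -0.14, as a description over intervals that share a pool and, in part, a gene. The sign was not the same throughout: at 200 to 500 kb (128 intervals) the values were 0.12 and 0.11, at 100 to 200 kb (212) -0.20 and -0.18, and over 500 kb (35) -0.34 and 0.0018. All members of a gene share its PH0. The lowest p-value in the list, 1e-100, was given to 72 members (19.2%), and the highest among members was 0.0499.

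**Figure D2:**
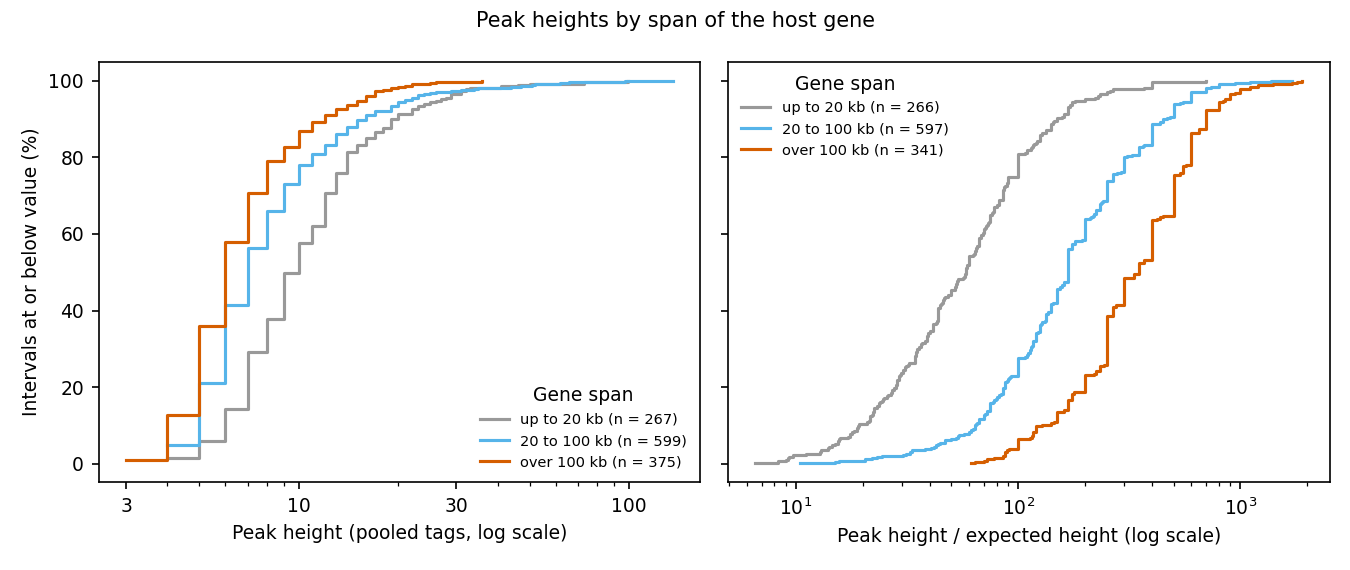
Cumulative share of intervals (%) at or below a peak height in pooled tags (left, log scale) and at or below a ratio of peak height to expected height (right, log scale), for genes up to 20 kb (grey), 20 to 100 kb (blue) and over 100 kb (orange). The orange line lies leftmost for height, with a median of 6 tags, and rightmost for the ratio, with a median of 350.

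The median height was the same in 4 stretches of long genes. It was 6 tags before 50% of the span (86 intervals), between 50 and 70% (70), between 70 and 90% (128) and in the last 10% (91). At least 10 tags were reached by 16.3%, 10%, 21.9% and 17.6% of these. Of the 110 members above 7 tags, 65.5% lay in the last 30% of the span (55.8 to 74.3) and 3.64% in the first 10% (0.9995 to 9.05), against 58.4% and 6.13% of all members, and these intervals overlap. Spearman's rho of height with position was 0.11 over the 375 members. It was 0.08 in genes of 100 to 200 kb, 0.03 in genes of 200 to 500 kb and 0.49 over the 35 intervals in genes over 500 kb, of which 9 are in NAV2. Widths were those of the list at large, with a median of 43 nt, and 217 members (57.9%) were 42 to 44 nt wide.

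An interval was found in a minority of long genes. Of 3356 protein-coding genes over 100 kb, 281 hosted one, 8.37% (7.46 to 9.36). The background over all 20050 protein-coding genes was 4.99%, with 6.53% in genes of 20 to 100 kb and 2.43% in genes up to 20 kb. Among long genes the share was 8.53% at 100 to 200 kb, 8.67% at 200 to 500 kb and 6.35% over 500 kb (3.92 to 9.64), so it did not climb further with span. Per megabase the order was the reverse. Genes over 100 kb held 0.436 intervals per Mb of their summed span, against 1.67 in genes of 20 to 100 kb and 3.56 in genes up to 20 kb. Within the long class the density fell from 0.782 through 0.391 to 0.133 per Mb over the same 3 ranges.

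The tallest intervals of long genes were in genes of varied function. MACF1, a cytolinker that joins actin and microtubules, held the tallest, of 36 tags at chromosome 1, 39466093 to 39466136 (plus strand), at 94.8% of its 402972 nt. NUP98, a nucleoporin, held 26 tags at chromosome 11, 3744512 to 3744554 (minus strand), at 43.3% of its span. TEAD1, the DNA-binding partner of YAP in the Hippo pathway, held 25 tags at 70.4%, DGKD, a diacylglycerol kinase, 22 at 70.5%, and ZMIZ1, a transcriptional coregulator, 22 at 38.2%. LAMC1, a laminin chain of the basement membrane, held 21 tags at 87.7%, and DNM2, the dynamin that cuts endocytic vesicles from the membrane, 20 at 82.3%. SLCO5A1, an organic anion transporter family member, and VMP1, a membrane protein of autophagy, held 19 tags each, at 86.3% and 98.1%. ANKRD30BL held 18 tags at 2.15%. Of these 10 intervals, 7 lay beyond 70% of the span. The ANKRD30BL interval lay also inside LOC107985804 and LOC110467533, both pseudogenes, and so did a second interval of 5 tags in that gene.

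**Figure D3:**
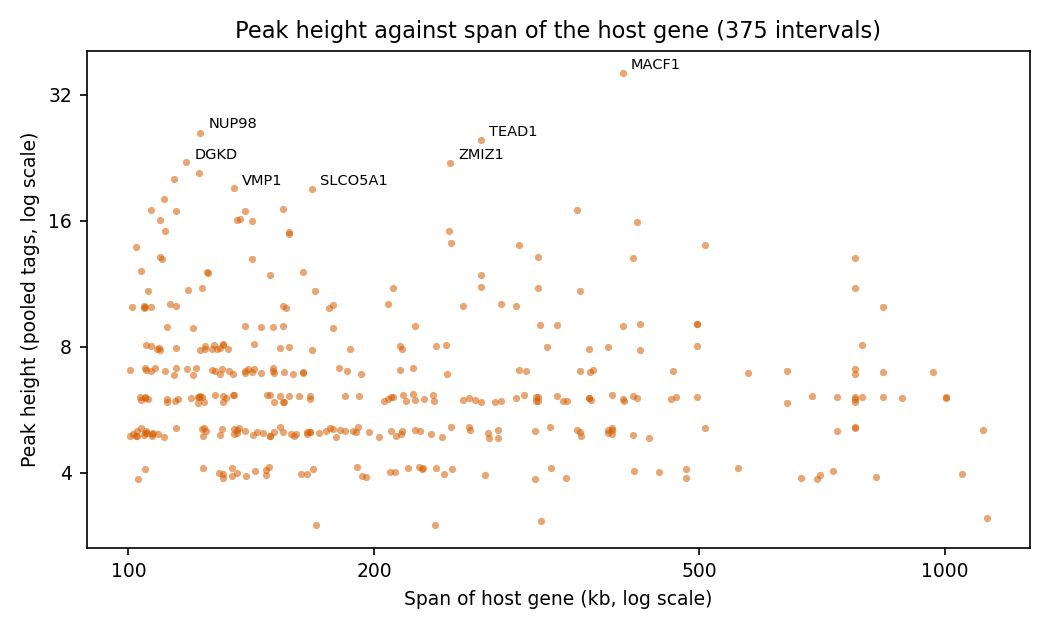
Peak height in pooled tags against the span of the host gene in kb for the 375 intervals, both on log scales; points are intervals, shifted by a small random amount in height to separate equal values, and 7 of the tallest are named. Heights of at least 20 tags occur between 100 and 500 kb, and no interval in a gene over 500 kb exceeds 14 tags.

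The highest ratios to the expected height came from genes with a PH0 of 0.01. SLCO5A1 led with a PH/PH0 of 1900, followed by ANKRD30BL with 1800, PAPSS1, an enzyme that makes the sulfate donor PAPS, with 1700 at 17 tags, and PAPPA, a secreted metalloproteinase, with 1400 at 14 tags. With PH0 rounded to 0.01, the ratio of SLCO5A1 may lie anywhere from 1267 to 3800. MACF1, at a PH0 of 0.03, had 1200, as did EPB41L4B, a FERM domain protein, with 12 tags at 0.01. DGKD had 1100. EXOC2, a subunit of the exocyst, NIPAL2 and PTPRM, a receptor tyrosine phosphatase, had 1000 each at 10 tags, a value that RPRD2 shared at the same height and PH0, so the 10 named end within a tie of 4. Of these 10 genes, 8 had a PH0 of 0.01, and their order is not finer than that rounding. PID1 held 15 tags at a listed PH0 of 0, the tallest of the 34 such members, whose median was 4 tags.

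Several long genes carried more than 1 interval. Of the 281 hosts, 212 held 1 interval, 52 held 2 and 17 held 3 or more. The 69 hosts with at least 2 contained 163 of the 375 members (43.5%). Neighbouring intervals of a gene were 17010 nt apart in the median, with 9 of 94 distances within 1000 nt and 27 over 50 kb. The closest pair, 144 nt apart, lay in RYR2. In the 69 hosts with at least 2 intervals, the distance from the first to the last midpoint was a median of 14.2% of the gene span.

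In the hosts with 3 or more intervals, 40 of the 59 intervals (67.8%) lay at 70% of the span or beyond. In 13 of these 17 genes, all intervals lay beyond 40%. NAV2, a neuron navigator that binds microtubules, held 9 intervals of 5 to 13 tags. They lay at 49.1%, 59.0%, 77.4%, 91.3%, 92.1%, 94.1%, 94.2%, 95.02% and 98.8% of its 776366 nt, so 6 of the 9 fell in the last 10%. TEAD1 held 6 tags at 15.02%, 25 at 70.4%, 11 at 74.8% and 12 at 75.9%. DST, a plakin that links intermediate filaments to junctions and microtubules, held 4 intervals of 6 to 9 tags between 57.8% and 71.8%. The 3 intervals of MACF1 rose in height along the gene, with 6 tags at 89.5%, 9 at 92.7% and 36 at 94.8%.

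A few genes with several intervals had them at both ends. HMGA2, an architectural chromatin protein, held 7 tags at 2.50%, 13 at 9.91% and 16 at 97.8% of 141832 nt. DIP2C held 13 tags at 7.53%, 6 at 15.6% and 5 at 83.8%. EXT1, an enzyme of heparan sulfate synthesis, held 11 tags at 12.7% and 6 tags each at 82.0% and 99.7%. Together with TEAD1 these were the 4 of 17 genes with an interval before 20% of the span. COL13A1, a transmembrane collagen, held 8 tags at 44.7% and 15 tags each at 77.5% and 98.6%. NEDD4L, a HECT ubiquitin ligase, held 5, 11 and 7 tags between 83.1% and 94.98%.

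**Figure D4:**
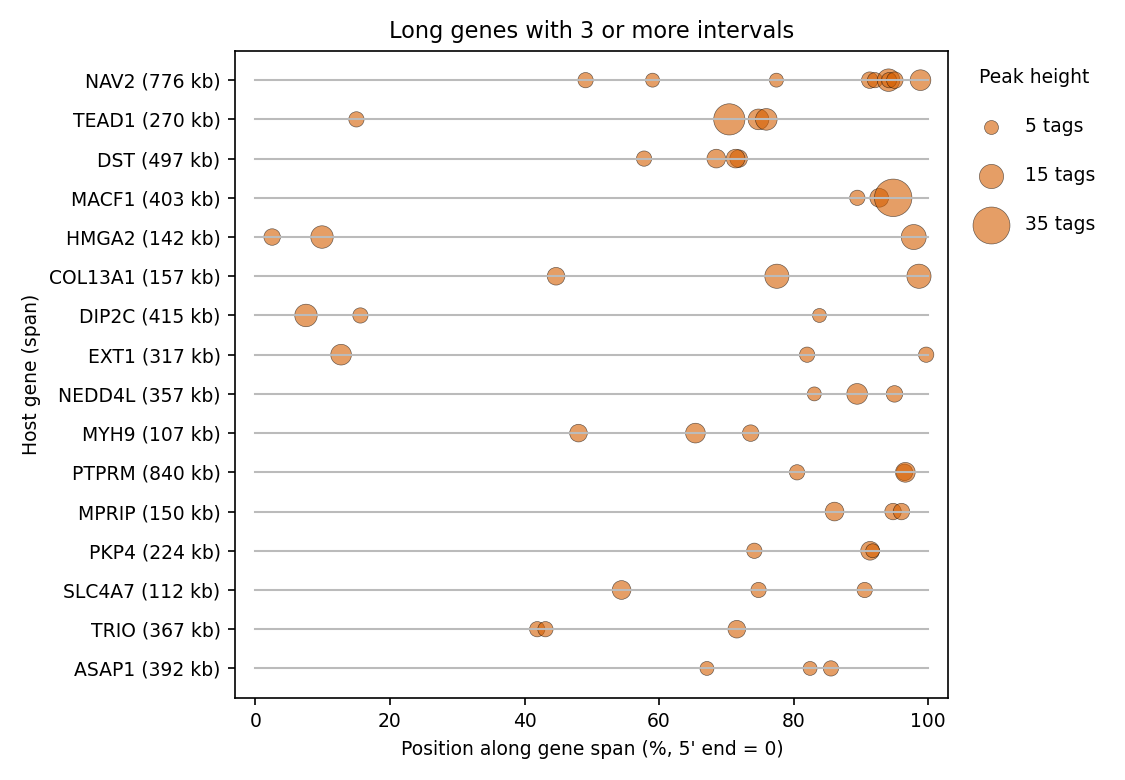
Position along the gene span (%, 5′ end at 0) of every interval in 16 of the 17 long genes with 3 or more intervals; each grey line is a gene with its span in kb, and the area of a circle is proportional to peak height in tags. Most circles lie to the right, as 39 of the 56 drawn are at 70% or beyond, while HMGA2, DIP2C, EXT1 and TEAD1 also have circles before 20%.

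Gene functions were described with 11 lists chosen by textbook function, of which 622 genes were over 100 kb. An interval was present in 106 of them (17.04%), against 8.37% of all long genes and 175 of 2734 long genes outside the lists (6.40%). The lists were chosen with earlier results of these data known. Neither the higher share over all lists nor the share of any single list is therefore independent evidence. The share of each list below is to be read beside both 17.04% and 8.37%. The lists overlap in 4 genes, among them HUWE1, which counts for chromatin and for ubiquitin. No list was tested.

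Cytoskeletal genes had an interval in 21 of 69 long members (30.4%, 19.9 to 42.7), with 44 intervals and a median height of 7 tags. After MACF1 and DNM2, the tallest were in MAP1B, a neuronal and developmental microtubule protein, with 14 tags at 99.7% of the span, and NAV2 with 13. An interval above 7 tags was present in 12 of the 21 genes. Of the 44 intervals, 29 lay in the last 30% of the span. Regulators of small GTPases had 9 of 54 (16.7%, 7.92 to 29.3), led by SIPA1L3 with 14 tags, SRGAP1 with 13, RASA3 with 10 and TRIO with 8.

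Chromatin regulators had 15 of 45 (33.3%, 20.001 to 48.95), the highest share of the lists as drawn up. DIP2C, with its tallest interval of 13 tags, and HUWE1 are counted among these hosts. The binomial interval overlaps that of cytoskeletal genes (30.4%, 19.9 to 42.7), so the order of both lists is not settled and depends on which genes were put on them. The 24 intervals of the chromatin list had a median of 6 tags, as did all members. HUWE1, a giant ubiquitin ligase, reached 17 tags at 89.8% of the span, as did JMJD1C, a Jumonji protein, at 88.7% and KDM2A, a histone H3 demethylase, at 45.1%. NSD2, a histone H3 methyltransferase, held 15 and 7 tags. Transcription factors and coregulators had 8 of 67 (11.9%, 5.30 to 22.2). After TEAD1, the tallest were MED13L, a Mediator subunit, with 9 tags, SMAD3, the mediator of TGF-beta signals, with 8, and NCOA3, a coactivator of nuclear receptors, with 7. RNA-binding proteins had 6 of 43 (14.0%, 5.30 to 27.9), with RBM6 at 16 tags, CNOT1, the scaffold of the CCR4-NOT deadenylase, at 13, PUM2 at 12 and EIF4G3 at 7. These 4 intervals lay between 75.9% and 89.2% of the span. Of the remaining hosts, PAN3 held 6 tags at 87.6% and RBMS3 4 tags at 13.6%.

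Kinases and phosphatases had 14 of 64 (21.9%, 12.5 to 34.0), led by PRKCA, a protein kinase C, with 14 tags, MTOR and PTPRM with 10 each and PPP6R2 with 8. Matrix and adhesion genes had 12 of 58 (20.7%, 11.2 to 33.4). After LAMC1 these were led by EXT1 with 11 tags, DLG1 with 10 and COL18A1, the collagen that yields endostatin, with 8. Ubiquitin pathway genes had 9 of 56 (16.1%, 7.62 to 28.3), with HUWE1 at 17 tags, UBR4 at 16 and HERC2 and NEDD4L at 11. The HERC2 interval lay at 1.85% of its span, unlike those of the other 3, at 77.8% or beyond.

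Metabolic and mitochondrial genes had 8 of 48 (16.7%, 7.48 to 30.2), of which only DGKD exceeded 7 tags; next came INPP5A with 7 and HK1, a hexokinase, and MTHFD1L with 6 each. Membrane trafficking genes had 4 of 57 (7.02%, 1.95 to 17.004): EXOC2 and MYOF at 10 tags, OSBPL3 at 7 and SPIRE1 at 5. Very long genes used mainly in neurons or muscle had 1 of 65 (1.54%, 0.0389 to 8.28). That gene was RYR2, the calcium release channel of heart muscle, with 8 and 6 tags at 70.8% and 70.9% of the span and a listed PH0 of 0. This list has a median span of 1102672 nt, against 175246 nt for all long genes. Its share describes only the genes put on it. SDK1 (7 tags), NEGR1 (6), PTPRN2 (4), NALF1 (4) and KCNC2 (3) are in none of the lists and each held an interval. Another choice of genes could therefore give a different share.

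**Figure D5:**
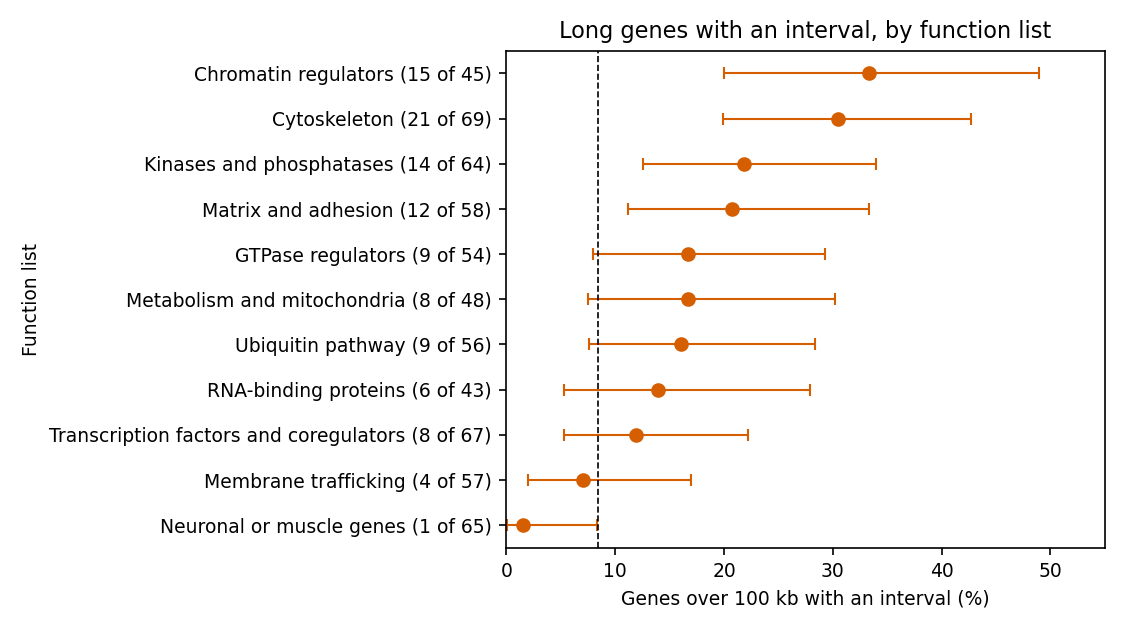
Share (%) of genes over 100 kb with an interval in each of 11 function lists, with the count in brackets; points are shares, whiskers exact binomial 95% intervals, and the dashed line is the share of all genes over 100 kb (8.37%). The share over all lists together, 17.04%, is not drawn. Chromatin (33.3%) and cytoskeletal genes (30.4%) lie furthest right and the neuronal or muscle list (1.54%) furthest left.

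The 5 longest hosts held 1 or 2 intervals each, of 3 to 7 tags. SPAG16, a protein of the ciliary axoneme with a span of 1126038 nt, held 3 tags at 1.98%, and WWOX, a gene at a common fragile site, 5 tags at 6.17% of 1113014 nt. PTPRN2, a phosphatase-like protein of secretory granules, held 4 tags at 97.5% and SDK1, an adhesion molecule, 7 at 40.9%. ADAMTSL1 held 2 intervals of 6 tags, 653 nt apart at 81.1%. Of these 5 genes, 4 have a listed PH0 of 0. Few intervals and low heights were not particular to them. Of all 281 hosts, 212 held 1 interval, and the median height of members was 6 tags. Other hosts over 500 kb held more, with 3 intervals of up to 10 tags in PTPRM and 9 of up to 13 in NAV2.

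At the 100 kb boundary values were alike on both sides. Just above it were NPEPPS (100344 nt, 5 tags at 76.4%), HIPK3 (100352 nt, 7 tags at 93.5%) and SPG11 (100967 nt, 10 tags at 52.3%). Just below were CCDC18 (98818 nt, 7 tags at 61.5%), TMEM181 (98790 nt, 9 tags at 94.5%) and ADAM19 (98472 nt, 8 tags at 83.7%).

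Some members share their position with another gene. At 28 midpoints a further RefSeq gene was annotated, 16 of them with a long noncoding RNA, 9 with a protein-coding gene and 3 with a pseudogene. Among the hosts are the readthrough loci ANKHD1-EIF4EBP3, RPS10-NUDT3 and MSANTD3-TMEFF1, whose spans join neighbouring genes. The interval of RPS10-NUDT3, 7 tags at 3.05% of 138876 nt, lay inside the ribosomal protein gene RPS10. Without the 28 intervals, the last 10% of the span held 23.1% of the rest and the first 10% held 4.90%.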

How the data were processed

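The authors deposited 1 peak list for 2 SF3B1 HITS-CLIP libraries, which its file name marks as pooled, and its signal column is used as deposited, as the peak height in tags without normalization. The list has no header, and the meaning of its fields was read from their names and values. The list's text field adds a gene number, PH0 and a p-value. Cutadapt 2.3, BWA 0.7.17 and hg38 are named per the submitters' processing notes. Which program called peaks, at which threshold and with which annotation, and how PH0 was computed, are not given in the sources used here.

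Of 1587 rows, 1406 distinct intervals were kept and joined to RefSeq gene spans (GRCh38.p14) by gene number. Small RNA genes were those of at most 500 nt. Their pseudogenes were recognised by gene symbol, so one named otherwise would not have been left out. Gene strands and start windows came from the RefSeq promoter table. Positions are 1-based. With 1 pooled list no test was made: shares have exact Clopper-Pearson and medians order-statistic 95% intervals, covering counting error only. Position summaries were tested on simulated data.

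Members and function lists were chosen with earlier results of these data known. Named genes were the 10 tallest intervals, the 10 highest ratios, the 10 hosts with most intervals, the 5 longest hosts, the 3 intervals nearest each end, up to 4 genes per list and the 3 hosts on each side of 100 kb. Of these, 1 host with 3 intervals is counted but not reported here by name. Tables were made with pandas 2.3.3 and numpy 2.4.6 under Python 3.11.15, intervals with scipy 1.17.1 and figures with matplotlib 3.10.9.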

Additional observations from a re-analysis of the deposited data

Results flagged for a closer look

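In genes over 100 kb, 24 intervals at small RNA genes or their pseudogenes were left out of the comparisons, and they are given here because they form data that those comparisons do not use. They lay in 21 genes, 19 of which host none of the 375 members, and 22 of the 24 were at pseudogenes. Their median height was 8.5 tags and the tallest, at RNU1-11P inside PHACTR1, reached 83 tags, above every member. The list holds only called peaks, so these heights do not by themselves set the intervals apart from background.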

How the results depend on the processing

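Of 126 alternative values, 102 counted as unchanged and 24 as moved. Unchanged meant within 1.5 times the count or within the 95% interval of the value reported. The mean log2 height was instead judged by the standard deviation of log2 height. Leaving out the single function lists and log2 height, 15 of 81 alternatives moved. With any overlap of 1 nt, or with intervals within 50 nt merged, the 375 intervals in 281 hosts and all values stayed the same. These unchanged values add no further support. A bound of 50 kb gave 645 intervals in 508 hosts and a median PH/PH0 of 267. A bound of 200 kb gave 163 intervals in 114 hosts. Intervals above the list's median height of 7 tags numbered 110 in 95 hosts, by construction with a higher median, of 10 tags. Among these, 2.83% of long genes and 45 list genes held an interval, the first 10% of the span held 3.64% and the last 30% held 65.5%. Alternatives chosen after seeing the data measured position from the most downstream annotated start, which gave a median of 71.3% and 52.3% in the last 30% over 281 intervals. Intervals upstream of that start, and those in genes without a start entry, were left out there. In hosts with 1 annotated start the last 10% held 19.4% of 170 intervals. Over all alternatives run, the share in the last 10% ran from 19.4 to 25.2%. Heights of 3 to 6 tags limit the precision of any single interval. No paired analysis was possible because the list pools both libraries, and for the same reason no replicate could be left out.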
